A study of Mus musculus with 3 samples.

Results

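The solute carrier genes expressed in 2 kinds of epidermal cell, Langerhans cells (LCs) and keratinocytes, are described here in mouse ear epidermis. It was untreated apart from depilatory cream, irritated with croton oil or punched with a microneedle array. Solute carriers are membrane transporters, named Slc with a family number, that move amino acids, sugars, ions, metals, vitamins, nucleotides and many other solutes across the plasma membrane or the membranes of mitochondria, lysosomes and the Golgi. LCs are antigen-presenting immune cells that live among keratinocytes, the epithelial cells of the epidermis, which divide in the basal layer and differentiate in the suprabasal layers. Amino acid and lactate transporters are known for following growth and glycolysis, metal transporters for iron and zinc supply, and several family members for feeding and sensing at the lysosome.

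The members were chosen by measured values: any gene whose symbol starts with Slc and a digit, and which reached 20 CPM (UMIs of the gene per 1000000 UMIs of the sum) in the summed LCs or the summed keratinocytes of at least 1 library. This gave 134 members out of 382 such symbols and 34289 listed features. Both sums passed the level for 81 members, while 18 passed through LCs only and 35 through keratinocytes only. Just inside the level were Slc35a1 (20.3 CPM), Slc30a6 (20.4) and Slc22a21 (20.6), and just outside were Slc39a13 (19.5), Slc33a1 (19.2) and Slc4a2 (19.1). The name rule also took in Slc7a6os and Slc4a1ap, neighbours or partners of transporter genes that are not transporters themselves. Of the remaining 248 Slc symbols, 5 had no UMI in either gate of any library.

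Each of the 3 groups was 1 single-cell 3' library from male Cd1 mice. Control animals had received only depilatory cream, another group acetone with croton oil and olive oil, and the last group repeated microneedle punches, and ears were taken 48 hours after the first treatment. The number of animals behind each library is not given in the sources used here. With 1 library per group there was no test of any difference, and every interval below (95%, exact) covers counting error only. A difference was counted when it reached 2-fold on the scale log2((CPM + 5)/(CPM + 5)), among features that had at least 20 CPM in either library compared.

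LCs were cells in which Cd74, H2-Aa, H2-Ab1 and H2-Eb1 made up at least 2% of the UMIs (unique molecular identifiers, 1 per captured molecule) and Epcam had at least 2 UMIs. In the order untreated, croton oil, microneedle they numbered 9428, 6409 and 5643, with 91391005 to 120950040 UMIs in sum and medians of 11672, 12809 and 17519 UMIs per cell. All 8 LC markers were found in each sum, with Cd207 at 569, 320 and 462 CPM. Keratinocytes were cells with at least 0.5% of UMIs from Krt14, Krt5, Krt1 and Krt10 and under 1% from Cd74: 203, 240 and 122 cells with 6269943, 11474864 and 3401361 UMIs. The tissue had been enriched for LCs. All 8 keratinocyte markers were found, but the keratins differed: Krt10, made in suprabasal cells, stood at 14488, 593 and 4163 CPM, and Krt14, made in basal cells, at 5297, 17512 and 15469 CPM. Both gates were passed by 17, 6 and 1 cells. Libraries shared 13 to 32 cell barcodes in each pairing.

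RNA of 1 cell type was present in the other. Cd207 in keratinocytes was 0.19, 0.0796 and 0.203 of its level in LCs in the untreated, croton oil and microneedle libraries, whereas Krt14 in LCs was at most 0.0181 of its level in keratinocytes. S100a8 in LCs was 0.00228 of its level in the gated neutrophils of the croton oil library and 0.00278 in the microneedle library. For keratinocyte levels that lie near it, the level that LC RNA at the Cd207 ratio would give is printed too. Counts from 3' ends do not grow with transcript length, so CPM values of different genes are set side by side as shares of molecules.

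In untreated LCs the amino acid transporters led. Slc38a1, a sodium-coupled importer of glutamine and other neutral amino acids, had the highest level of any member with 911 CPM, and stood at 958 CPM with croton oil and 1002 with microneedles. Slc3a2, the heavy chain that carries several Slc7 transporters to the surface, had 558, 477 and 460 CPM in the same order. Slc38a2, a second neutral amino acid importer, followed with 458 CPM in untreated LCs. Next came Slc8a1, the sodium-calcium exchanger, with 377 CPM, Slc4a7, a sodium bicarbonate importer, with 363, Slc25a3, the mitochondrial phosphate carrier, with 343, Slc25a5, an ADP/ATP carrier of mitochondria, with 227, and Slc9a9, a sodium-proton exchanger of endosomes, with 197. By class, the 20 amino acid members summed to 2895 CPM, 2571 and 2835 CPM, the 15 inorganic ion members to 1419, 1521 and 1799 CPM, and the 23 mitochondrial carriers to 1410, 1349 and 1346 CPM. All 134 members together made up 8125 CPM of untreated, 7875 of croton oil and 8726 of microneedle LCs, so their total moved little.

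In untreated keratinocytes the highest member was Slc24a3, a potassium-dependent sodium-calcium exchanger, with 374 CPM. Slc38a2 had 315 CPM, Slc25a3 283 and Slc25a5 283, Slc6a6, the taurine importer, 228, Slc38a1 190, Slc3a2 179 and Slc9a9 158. LC RNA at the Cd207 ratio would give 87.0 CPM of Slc38a2, 65.2 of Slc25a3, 43.0 of Slc25a5, 35.3 of Slc6a6, 106 of Slc3a2 and 37.4 of Slc9a9. The value of Slc38a1 is close to the 173 CPM that LC RNA at the Cd207 ratio would give, and is read as background. Over all 3 libraries 52 members were at 20 CPM or more in each of the 6 sums.

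LCs of treated skin differed from untreated LCs in a small number of members. With croton oil, 96 members entered the comparison, and 3 were at least 2-fold higher (Slc7a8, Slc16a3, Slc8a1) where 5.66% of all 6856 features were. In the same comparison 10 members were at least 2-fold lower, against 5.48% of all features: Slc6a4, Slc2a3, Slc26a11, Slc9a9, Slc46a3, Slc27a2, Slc49a4, Slc25a36, Slc38a2 and Slc22a5. With microneedles, 96 members entered, and 4 were at least 2-fold higher (Slc7a8, Slc16a14, Slc8a1, Slc15a3) against 3.92% of features. The 3 members at least 2-fold lower (Slc6a4, Slc46a3, Slc2a3) compare with 1.77% of features. The medians over members that entered were -0.03 with croton oil and 0.05 with microneedles, beside -0.03 and 0.02 over all features. The treatments share 1 untreated library as their control, so their values are given side by side: 2 higher members, Slc7a8 and Slc8a1, and 3 lower members, Slc6a4, Slc2a3 and Slc46a3, were counted in both. The same overlap over all features was not counted, so these numbers are not read as a result about the members. None of these values has a replicate check. All 7 T cell markers were found in the LC sums, at 4.43, 78.9 and 19.0 CPM together (Trac at no more than 0.153 CPM), and the 6 neutrophil markers at 9.41, 211.2 and 207.3 CPM together; their part in the differences was not tested.

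**Figure D1:**
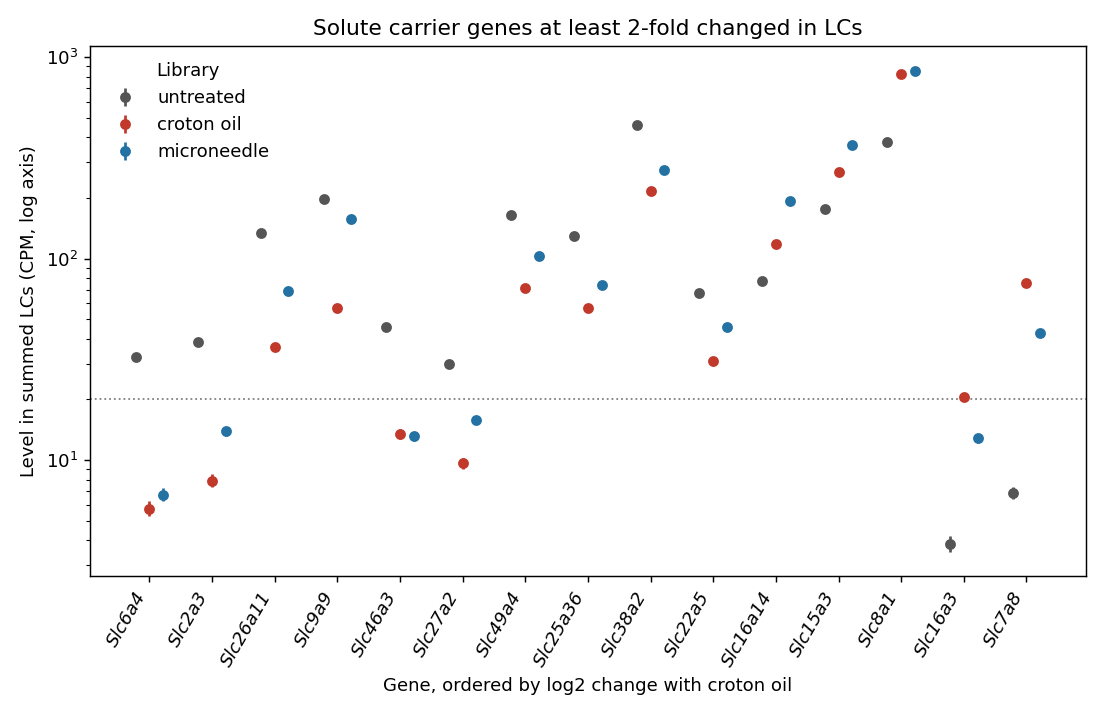
Levels in summed LCs (CPM, log axis) of the 15 members at least 2-fold higher or lower with either treatment, 1 point per library with its 95% counting interval, mostly smaller than the point. The dotted line is the 20 CPM level. Slc6a4, Slc46a3, Slc2a3 and Slc27a2 lie above it in the untreated library and below it in both treated libraries, and Slc7a8 lies below it in the untreated library alone.

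Slc7a8 encodes a light chain that pairs with Slc3a2 and exchanges large neutral amino acids. It had 6.84 CPM in untreated LCs (6.38 to 7.32), 76.0 with croton oil (74.3 to 77.8) and 42.5 with microneedles (41.3 to 43.8). Both treated libraries were far above the untreated one, 11.1-fold (10.35 to 11.97) and 6.22-fold (5.77 to 6.71), and log2 2.78 and 2.01 on the scale with the pseudocount. After each cell was thinned to 5000 UMIs, 2.64% of 9162 untreated LCs, 21.5% of 6322 croton oil LCs and 13.3% of 5536 microneedle LCs held a UMI of Slc7a8. Unthinned, these shares were 5.74%, 40.2% and 29.9%. Thinned neutrophils held a UMI of it in 8.11% of 37 croton oil and 13.7% of 102 microneedle cells, and T cells in 6.73% of 104 croton oil cells. Without thinning these were 5.95%, 5.83% and 8.15%, at median depths of 3247, 3633 and 6244 UMIs. The thinned microneedle LC share is not told apart from that of neutrophils. In keratinocytes, of median depth 29703, 48882 and 17822 UMIs, the thinned shares were 0 of 187 (limit of 1.604% from 3 counts of the total), 2.97% and 4.23% (unthinned 1.97%, 16.25% and 5.74%), and its summed levels of 0.638, 5.66 and 8.53 CPM are near the 1.3, 6.05 and 8.64 CPM that LC RNA would give. Inside the LC gate the croton oil level was 108 CPM in cells with Mki67 or Top2a, 71.7 in Ccr7 and Fscn1 cells and 70.2 in all others. The 137 gated macrophages of the microneedle library held 777 CPM of Slc7a8, and the level in microneedle LCs was 0.0548 of theirs. If a member has to reach 0.1 of its level in any other gated cell type of the library, the microneedle call of Slc7a8 ends. The croton oil library held 4 gated macrophages, too few to apply the requirement against macrophages there. All 7 macrophage markers were found in LCs and summed to 287, 337 and 293 CPM, most of it Adgre1 (248, 166 and 201 CPM), while Mrc1 stood at 0.331, 49.3 and 2.09 CPM and Ly6c2 at no more than 0.678 CPM. Their part in the Slc7a8 values was not tested.

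The other Slc7 transporters among the members did not reach 2-fold in LCs. Slc7a5, another large neutral amino acid exchanger of the same complex, had 88.5, 69.7 and 78.7 CPM in LCs, and Slc7a1, the cationic amino acid importer, had 95.3, 134 and 145 CPM. Slc7a6 stayed under 7.1 CPM in every LC sum and did not enter.

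Slc8a1 moves calcium out of the cell in exchange for sodium. It stood at 377 CPM (374 to 381) in untreated LCs, 824 (818 to 830) with croton oil and 857 (852 to 863) with microneedles. These were 2.18-fold and 2.27-fold the untreated level, and the 2 treated values lie close to each other. The level was 374, 827 and 861 CPM among LCs that were neither cycling nor Ccr7 and Fscn1 cells, so the same difference appeared there. Slc9a7 and Slc9a8, sodium-proton exchangers of the Golgi, had 96.6, 59.4 and 72.8 CPM and 33.9, 44.2 and 62.6 CPM, neither reaching 2-fold.

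Slc15a3 carries histidine and peptides across the lysosomal membrane. It had 176 CPM in untreated LCs, 268 with croton oil and 366 with microneedles, or 1.52-fold and 2.07-fold the untreated level. The microneedle value sits at the edge of the call, since it came to 0.99 on the log2 scale when mitochondrial and ribosomal protein genes were left out of the totals. The gated neutrophils held 241 and 653 CPM of Slc15a3, which at the S100a8 ratio would add 0.55 and 1.82 CPM to LCs. Its relative Slc15a4 had 54.7, 51.4 and 51.2 CPM. Slc16a14, a member of the monocarboxylate family, had 77.1, 118 and 192 CPM, or 1.53-fold and 2.5-fold.

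Slc16a3, the exporter of lactate from glycolytic cells, reached 20.5 CPM in croton oil LCs from 3.84 CPM in untreated LCs, and had 12.8 CPM in microneedle LCs. It did not enter the microneedle comparison because both sums were under 20 CPM. Neutrophils held 499.8 and 548 CPM of it, which at the S100a8 ratio would give 1.14 and 1.53 CPM in LCs. The croton oil call lies at the edge of the 20 CPM level and ends when the cells with the highest doublet scores are removed, because the level then falls below 20 CPM; under the settings in which it entered, the log2 difference was at least 1.49. It also ends when a member has to reach 0.1 of its level in any other gated cell type, since the croton oil LC level was 0.041 of that in neutrophils. Slc16a1, the other main lactate transporter, stayed between 1.31 and 2.02 CPM in LCs. Basigin (Bsg), the partner protein of both, had 110, 185 and 144 CPM.

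Among the lower members, Slc6a4, the serotonin importer, had 32.6 CPM (31.6 to 33.6) in untreated LCs, 5.74 (5.26 to 6.26) with croton oil and 6.72 (6.23 to 7.23) with microneedles. The treated levels were 0.176 and 0.206 of the untreated one. After thinning, 13.8%, 1.87% and 3.02% of LCs held a UMI of Slc6a4 (unthinned 29.2%, 4.51% and 9.39%), against 0 of 104 T cells in the croton oil library, of median depth 6244 UMIs, where 3 counts of the total set a limit of 2.88%. The croton oil LC share lies within that limit and is not told apart from background. In keratinocytes it had 41.8, 28.9 and 41.7 CPM, higher than LC RNA alone would give, and in untreated cells its level was 73.7 CPM in those with more Krt14 and Krt5 against 14.5 in those with as much or more Krt1 and Krt10.

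Slc2a3, a glucose importer of high affinity, had 38.4 CPM in untreated LCs, 7.88 with croton oil and 13.9 with microneedles, or 0.205 and 0.363 of the untreated level. Slc2a1, the widespread glucose importer, had 43.2, 60.3 and 42.0 CPM in LCs, so the order of these 2 importers opened up in the treated libraries. Slc46a3, a transporter of the lysosomal membrane, had 45.6, 13.5 and 13.1 CPM, with treated levels of 0.296 and 0.287 of the untreated one and thinned shares of 19.9%, 6.04% and 6.36% of LCs (unthinned 38.8%, 15.5% and 19.0%). Thinned neutrophils held a UMI of Slc46a3 in 10.8% of 37 croton oil and 5.88% of 102 microneedle cells (unthinned 3.78% and 5.21%, at median depths of 3247 and 3633 UMIs). The treated LC shares after thinning are not told apart from these.

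The other lower members were counted with croton oil alone, and in each the microneedle level lay between the croton oil and the untreated level. Slc26a11, a chloride and sulfate transporter, had 134, 36.3 and 69.0 CPM. Slc9a9 had 197, 56.5 and 156 CPM and was the 1 member at least 2-fold apart between the treatments, with a log2 difference of -1.39 for croton oil over microneedles. In that comparison 92 members entered, none was at least 2-fold higher against 1.69% of 6645 features, and 1 was lower against 1.05%. Slc49a4 had 164, 71.2 and 103 CPM, and Slc25a36, a mitochondrial carrier of pyrimidine nucleotides, 130, 56.6 and 74.0 CPM. Slc27a2, which activates and imports fatty acids, had 29.8, 9.63 and 15.8 CPM. Slc38a2 had 458, 216 and 275 CPM, and Slc22a5, the carnitine importer, 67.6, 30.9 and 45.8 CPM. These last 2 fell short of 2-fold under TMM scaling, at -0.97 and -0.93. Slc38a1 and Slc38a2 lie 43.4 kb apart on chromosome 15 in the same orientation, and only Slc38a2 was among the lower members.

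The bases in front of the transcription start are shown for Slc8a1, Slc15a3, Slc6a4 and Slc46a3, to set the 2 directions side by side. In LCs Slc8a1 was counted higher with both treatments and Slc15a3 with microneedles alone, while Slc6a4 and Slc46a3 were counted lower with both. The bases are read from GRCm39, the build named for the deposited counts, in front of the canonical start in GENCODE M39. They run on the gene's strand from 5′ to 3′ and leave out any exon of a protein-coding gene. The canonical start of Slc15a3 lies inside its annotated gene, which begins at base 10817091 of chromosome 19. Capitals mark motif matches.
Slc8a1 (chr17:82045892-82046141, minus strand): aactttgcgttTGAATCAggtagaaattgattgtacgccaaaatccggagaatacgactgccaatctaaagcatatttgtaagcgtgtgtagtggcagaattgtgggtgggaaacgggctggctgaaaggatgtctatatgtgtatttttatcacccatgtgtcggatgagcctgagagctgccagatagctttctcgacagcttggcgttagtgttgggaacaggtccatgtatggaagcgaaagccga
Slc15a3 (chr19:10819646-10819895, plus strand): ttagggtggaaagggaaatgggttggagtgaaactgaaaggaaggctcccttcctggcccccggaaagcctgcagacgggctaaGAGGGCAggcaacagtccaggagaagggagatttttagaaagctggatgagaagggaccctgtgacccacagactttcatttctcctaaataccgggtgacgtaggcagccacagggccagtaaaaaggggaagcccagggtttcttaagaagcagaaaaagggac
Slc6a4 (chr11:76888653-76888902, plus strand): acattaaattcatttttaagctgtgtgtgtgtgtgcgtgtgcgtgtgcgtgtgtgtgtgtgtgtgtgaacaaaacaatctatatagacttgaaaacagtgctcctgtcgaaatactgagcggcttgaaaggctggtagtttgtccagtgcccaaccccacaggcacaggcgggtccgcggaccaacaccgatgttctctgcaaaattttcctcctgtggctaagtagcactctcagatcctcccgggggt
Slc46a3 (chr5:147831667-147831885, minus strand): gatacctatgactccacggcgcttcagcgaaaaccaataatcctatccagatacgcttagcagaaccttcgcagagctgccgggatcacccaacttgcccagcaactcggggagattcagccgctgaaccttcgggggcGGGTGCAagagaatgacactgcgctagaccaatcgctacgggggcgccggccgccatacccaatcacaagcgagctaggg
Searched on both strands were TGATGNAA (C/EBP-ATF response element core), ACGTG (hypoxia response element core), TGANTCA (loosened AP-1 pattern), TGCNCNC (loosened metal response element pattern) and CACGTG (E-box of MYC and TFEB, which contains ACGTG). N stands for any base, so a match to a loosened pattern need not be an AP-1 site or a metal response element core. Slc8a1 holds TGAATCA, a match to the loosened AP-1 pattern with A at its N, 239 to 233 bases before the start. Slc15a3 holds GAGGGCA, a match to the loosened metal response element pattern on the other strand, 166 to 160 bases before it. Slc46a3 holds GGGTGCA, also a match to that pattern on the other strand, 111 to 105 bases before its start. No match to these letters is in the Slc6a4 window. Over the 250 bases before the start, matches to the loosened AP-1 pattern are in 8.21% of the 134 members and 4.76% of all 8846 genes at the same level. Matches to the loosened metal response element pattern are in 51.5% and 48.9%, hypoxia response element matches in 22.4% and 21.6%, E-boxes in 11.9% and 8.03%, and C/EBP-ATF matches in 2.99% and 2.28%. These shares describe letters in a window and are not binding sites.

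By substrate class, the counts in LCs stand beside 5.66% of all features higher and 5.48% lower with croton oil, and 3.92% and 1.77% with microneedles, and beside medians over all features of -0.03 and 0.02. Of the 16 amino acid members that entered with croton oil, 1 was at least 2-fold higher and 1 lower, with a median of -0.13. With microneedles 1 of 16 was higher and none lower, median 0.12. Of the inorganic ion members, 1 of 12 was higher and 2 lower with croton oil (median -0.23), and 1 of 11 higher and none lower with microneedles (median 0.05). Of 19 mitochondrial carriers, none was higher and 1 lower with croton oil (median 0.03), and none differed by 2-fold either way with microneedles (median -0.01). Of 4 lipid, choline and bile acid members, Slc27a2 and Slc22a5 were lower with croton oil (median -0.74) and none reached 2-fold with microneedles (median -0.39). Of the monocarboxylate and other organic anion members, 1 of 2 was higher with croton oil (Slc16a3) and the 1 that entered with microneedles was higher (Slc16a14). No metal transporter reached 2-fold in LCs with either treatment, of 12 and 13 that entered, with medians of 0.0026 and 0.26. The 6 members of the nucleotide sugar class had medians of 0.25 and 0.21, and none reached 2-fold. That class too was assigned by family, so a place in it does not show that a gene, Slc35b1 below included, carries a nucleotide sugar. The vitamin and cofactor members had medians of -0.64 and -0.23 over 3 genes, of which Slc46a3 was lower in both. Classes were assigned by family with exceptions by gene, and Slc46a3 is described above as a transporter of the lysosomal membrane. Its call is not read as one of a vitamin transporter. Also in this class, Slc23a2, the vitamin C importer, had 80.2, 49.7 and 67.5 CPM. In untreated LCs the highest metal transporter was Slc39a6, a zinc importer, with 91.8, 60.2 and 77.5 CPM, below the 166 and 152 CPM of Slc41a2 in the treated libraries. The highest among nucleoside transporters was Slc29a3, found in lysosomes, with 16.5, 32.5 and 36.0 CPM. Slc35b1 led the nucleotide sugar class with 32.6, 57.4 and 47.5 CPM, and Slc45a4 had 49.9, 47.1 and 83.9 CPM, the highest of the sugar class except with croton oil, where Slc2a1 was higher.

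**Figure D2:**
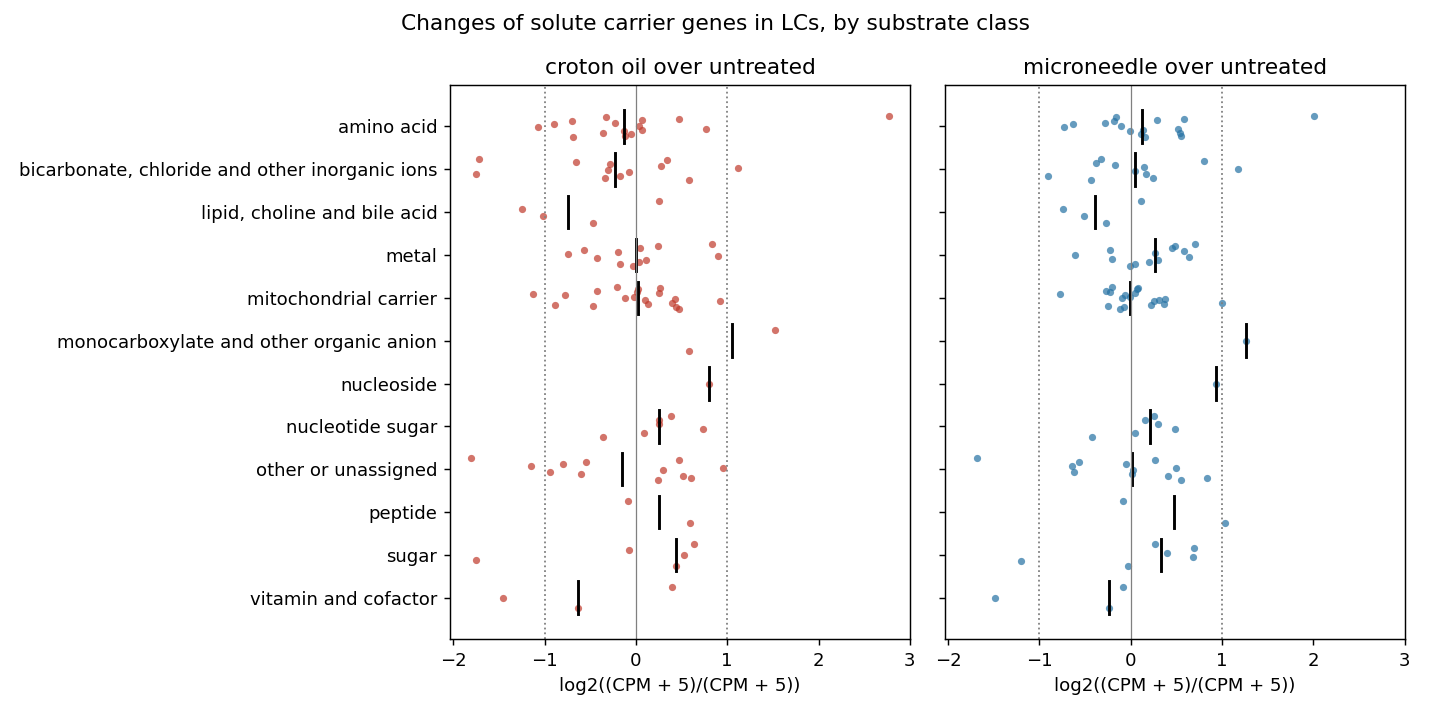
Differences of members in LCs from the untreated library, as log2((CPM + 5)/(CPM + 5)), by substrate class, 1 point per member that entered the comparison. Black bars are class medians and dotted lines mark 2-fold. Most points lie between the dotted lines, and the point farthest right in both panels is Slc7a8 at 2.78 and 2.01.

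A few metal-handling genes outside the family, named after their values were seen, were also measured in LCs. Mt1 and Mt2, metallothioneins that bind zinc and copper, had 182, 926 and 383 CPM and 6.61, 135 and 22.05 CPM. Fth1, the ferritin heavy chain, had 2087, 5715 and 3124 CPM, Ftl1, the ferritin light chain, 2136, 3838 and 2356 CPM, and Tfrc, the transferrin receptor that brings in iron, 96.4, 38.1 and 46.5 CPM. Mt1 and Mt2 were at least 2-fold higher with both treatments, Fth1 higher and Tfrc lower by 2-fold with croton oil alone, and Ftl1 was under 2-fold with both. Slc11a2, which passes iron through endosomal membranes, had 11.4, 13.6 and 10.9 CPM, and Slc40a1, the iron exporter, was under 0.41 CPM in each LC sum. Slc39a1, a zinc importer, had 13.7, 29.8 and 24.1 CPM, under 2-fold on the scale with the pseudocount of 5 CPM and past it with croton oil at a pseudocount of 1 CPM. Of the other regulators examined in LCs, Ddit3 had 78.3, 34.7 and 59.8 CPM, while Atf4, Hif1a, Nfe2l2, Myc and Mtf1 all stayed within 2-fold with both treatments.

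LCs and keratinocytes differed by at least 2-fold in the same direction in all 3 libraries for 36 members: 17 were higher in LCs, against 12.1% of 8869 features, and 19 lower, against 11.8%. By the smallest of the 3 differences, the members farthest towards LCs were Slc4a7, Slc38a1, Slc8a1, Slc15a3, Slc36a2, Slc9a7, Slc9a8 and Slc41a2. Slc4a7 had 363, 294 and 375 CPM in LCs and 72.4, 41.05 and 67.6 CPM in keratinocytes, where LC RNA would give 69.0, 23.4 and 76.3 CPM, and differed by at least log2 2.25. Slc41a2, a magnesium transporter, had 91.2, 166 and 152 CPM in LCs and 29.7, 23.7 and 34.1 CPM in keratinocytes, where LC RNA would give 17.3, 13.2 and 30.9 CPM. Slc36a2, a proton-coupled amino acid transporter, had 75.3, 57.5 and 112 CPM in LCs. In keratinocytes of all 3 libraries Slc7a8, Slc15a3, Slc27a2, Slc36a2 and Slc38a1 were near what LC RNA would give, within 1.5 times the Cd207 ratio, and are read as background there. With basal-type keratinocytes alone, 8 members were at least 2-fold higher in LCs, 7 of them among the 17, out of 128 that entered, where 717 of 8771 features were. The Cd207 ratio was 0.314 in untreated basal-type cells and 0.0837 in the suprabasal type, and its part in these counts was not tested.

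Members farthest towards keratinocytes were Slc44a1, Slc22a23, Slc6a14, Slc6a8, Slc24a3, Slc4a8, Slc27a3 and Slc25a48. Slc44a1, a choline transporter, had 119, 125 and 142 CPM in keratinocytes and 4.05 to 5.84 CPM in LCs. Slc22a23, whose substrate is not established, had 134, 74.4 and 87.3 CPM against at most 2.09 in LCs. Slc6a8, the creatine importer, had 98.6, 45.1 and 52.0 CPM against at most 1.61. Slc25a48, a mitochondrial choline carrier, had 16.1, 72.9 and 62.9 CPM against at most 0.558. Keratinocyte RNA was not subtracted from these LC values.

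**Figure D3:**
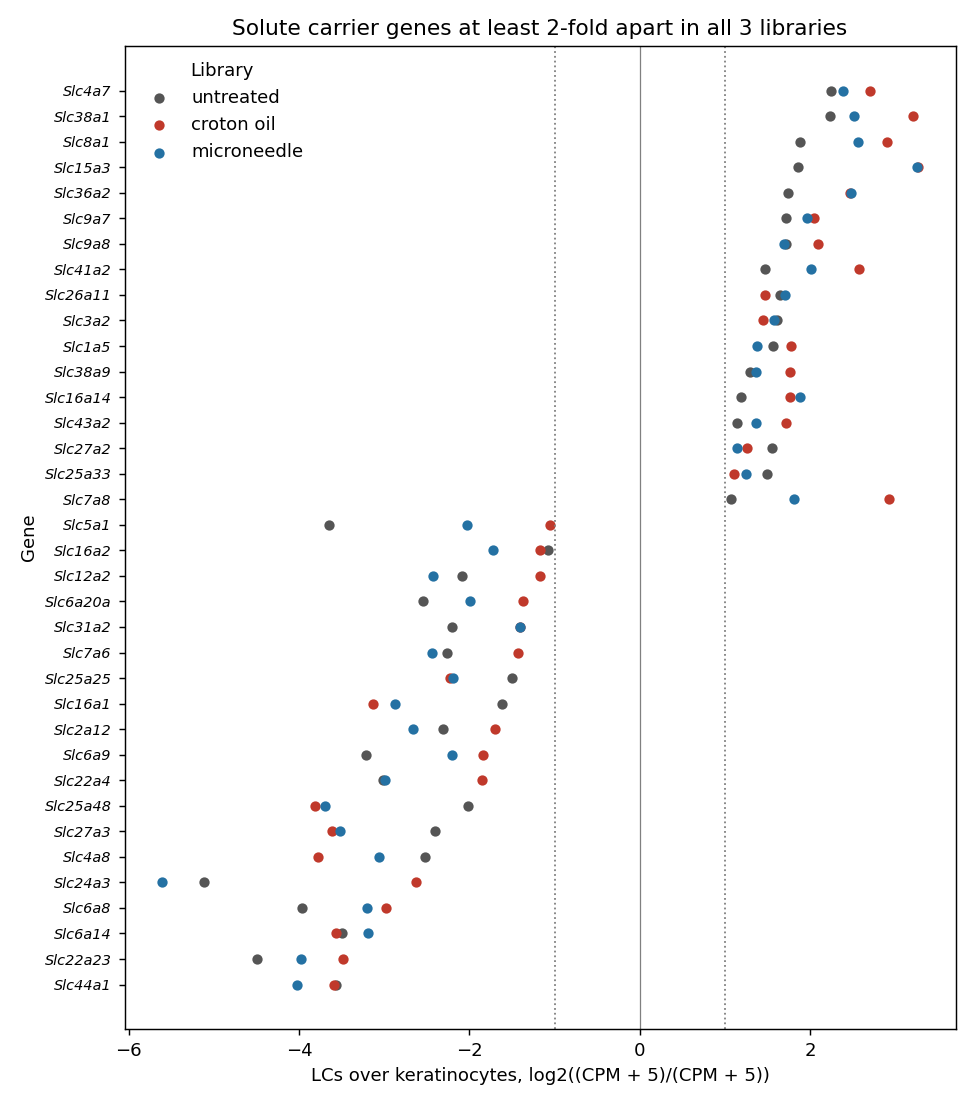
The 36 members at least 2-fold higher or lower in LCs than in keratinocytes in every library, as log2((CPM + 5)/(CPM + 5)), 1 point per library. Dotted lines mark 2-fold. The 17 genes on the right have all 3 points past log2 1, and the 19 on the left have all 3 points below -1.

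More members reached 2-fold in keratinocytes than in LCs, and the make-up of the gated keratinocytes differed between libraries; its part in the values was not tested beyond the split by type given here. Cells with more Krt14 and Krt5 than Krt1 and Krt10 UMIs (basal type) numbered 99, 210 and 91, and all others (suprabasal type) 104, 30 and 31. The suprabasal-type cells of the treated libraries were shallow, with medians of 4503 and 3810 UMIs against 29536 in the untreated library. They also differed in keratins: Krt14 stood at 68.3, 5017 and 2840 CPM and Krt10 at 26450, 5014 and 18461 CPM in the suprabasal type of the 3 libraries, so values within this type do not compare cells of 1 make-up. With croton oil, 108 members entered, 13 were at least 2-fold higher against 11.6% of 7603 features, and 26 were lower against 13.2%. With microneedles, 112 entered, 4 were higher against 5.9% of 7577 features, and 12 lower against 5.81%. Under TMM scaling the croton oil split was 19 higher and 18 lower, and the microneedle split 1 higher and 13 lower, beside 1414 higher and 709 lower of 7825 features and 302 higher and 541 lower of 7267. Of the 26 lower with croton oil, 7 were also lower by 2-fold within the basal type and 19 within the suprabasal type; in all, 28 of 109 members were lower within the basal type, where 1252 of 7778 features were, and 23 of 94 within the suprabasal type, where 763 of 6953 features were. Of the 12 lower with microneedles, none was lower by 2-fold within the basal type and 9 were within the suprabasal type; in all, 8 of 110 members were lower within the basal type, where 439 of 7794 features were, and 13 of 101 within the suprabasal type, where 496 of 7070 features were. Of the lower genes, 11 were counted with both treatments, again over a shared control: Slc11a2, Slc15a1, Slc28a3, Slc30a1, Slc31a2, Slc37a1, Slc40a1, Slc46a2, Slc5a1, Slc5a9 and Slc6a9. The overlap over all features was not counted here either, so this number is not read as a result about the members.

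Several of the genes farthest down were higher in the suprabasal type than in the basal type of untreated cells. Slc46a2, which brings bacterial muropeptides into keratinocytes, had 73.8 CPM in untreated keratinocytes, 0.261 with croton oil (3 UMIs, a ratio of 0.00354 with an interval of 0.00073 to 0.0104) and 6.17 with microneedles. In untreated cells its level was 126 CPM in the suprabasal type and 12.8 in the basal type. Within the suprabasal type it was 1.18 CPM with croton oil (1 UMI) and 23.6 with microneedles, in cells whose keratins differed as given above. Slc15a1, the peptide importer, had 45.9, 0.523 and 7.64 CPM in all keratinocytes and 83.1, 4.71 and 22.2 CPM in the suprabasal type. Slc28a3, a nucleoside importer, had 42.6, 1.05 and 6.47 CPM, and 78.4, 9.42 and 20.8 CPM in the suprabasal type. Slc40a1 had 44.2, 1.48 and 7.06 CPM, and 79.6, 9.42 and 31.9 CPM in the suprabasal type. Slc5a1, the sodium-glucose importer, had 63.6, 6.1 and 16.2 CPM, and 117, 45.9 and 30.5 CPM in the suprabasal type. In the basal type all of these were under 13 CPM in each library. Slc37a1, a sugar-phosphate transporter, had 37.6, 4.1 and 10.0 CPM in all keratinocytes.

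Slc24a3 differed from this group because it was higher in the basal type. It had 374, 74.4 and 350 CPM in all keratinocytes, and 609, 76.2 and 366 CPM in the basal type, so the low value lay in the croton oil library alone. Slc9a9 was low there in both cell types, with 158, 23.5 and 93.8 CPM in all keratinocytes and 163, 21.2 and 79.1 CPM in the basal type.

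Mitochondrial carriers were the largest group among the higher members. Of 18 that entered with croton oil, 5 were at least 2-fold higher and none lower (median 0.40), and of 22 with microneedles 3 were higher and none lower (median 0.39). Over all features 11.6% were higher and 13.2% lower with croton oil, 5.9% and 5.81% with microneedles, and the medians were -0.06 and 0.08. Under TMM scaling the 3 higher with microneedles became 1, Slc25a48. Slc25a5 had 283, 721 and 449 CPM, Slc25a3 283, 662 and 482 CPM, and Slc25a4, another ADP/ATP carrier, 78.2, 206 and 162 CPM. Slc25a4 had 126, 216 and 183 CPM in the basal type, under 2-fold there with both treatments. Slc25a39, which brings glutathione into mitochondria, had 36.2, 119 and 64.4 CPM. In the basal type, Slc25a5 had 266, 738 and 456 CPM and Slc25a3 304, 677 and 501 CPM, whereas the median of the 23 carriers that entered with croton oil was -0.07, so these genes do not stand for the whole class. Slc25a48 had 24.6, 76.2 and 72.4 CPM in the basal type. Slc25a13, the mitochondrial aspartate-glutamate exchanger, reached 2-fold with microneedles (45.9, 72.2 and 97.6 CPM), but had 80.0, 74.8 and 110 CPM in the basal type. All 4 cell cycle markers were found and summed to 50.6, 691 and 426 CPM in keratinocytes, and their part in these values was not tested.

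**Figure D4:**
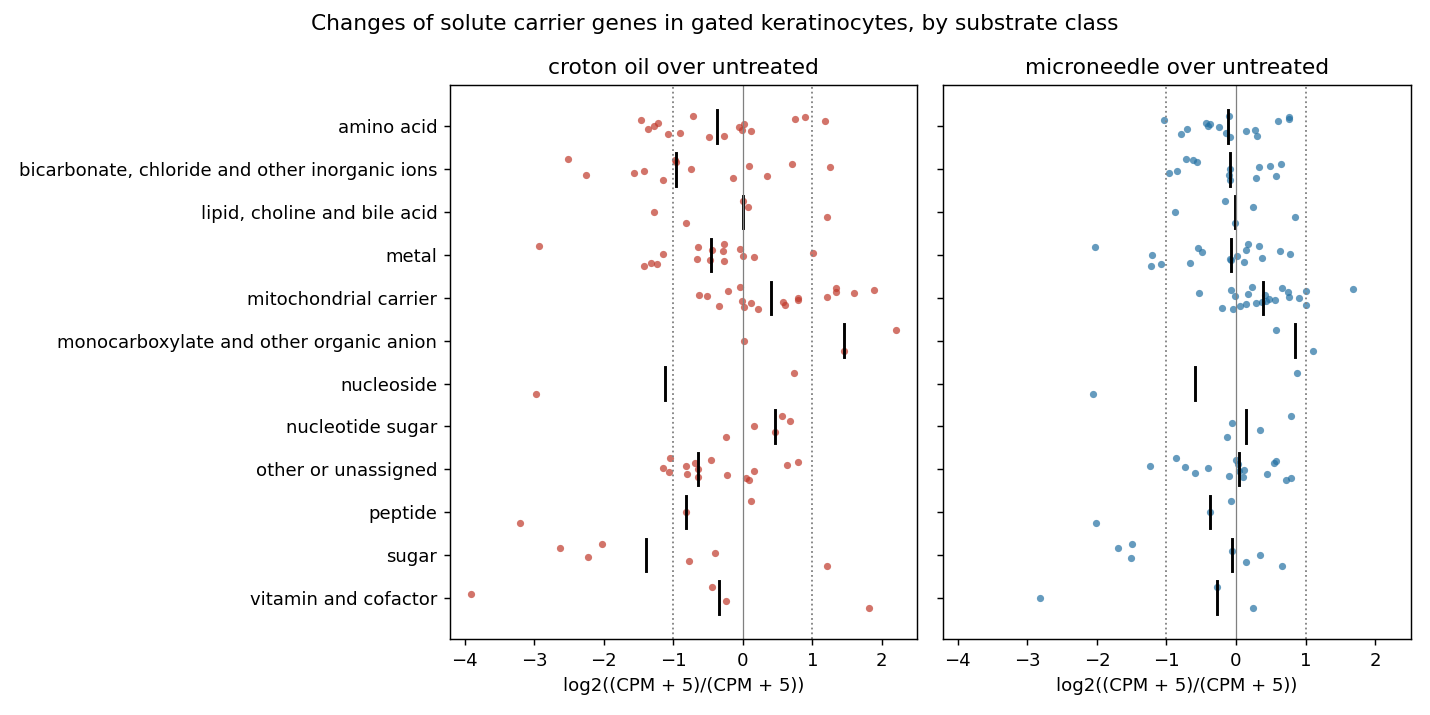
Differences of members in gated keratinocytes from the untreated library, as log2((CPM + 5)/(CPM + 5)), by substrate class, 1 point per member that entered. Black bars are class medians and dotted lines mark 2-fold. Mitochondrial carriers have medians of 0.40 and 0.39, and the points farthest left are Slc46a2 at -3.91 and -2.82. Slc46a2 is drawn with the vitamin and cofactor class, though it is described in the report as bringing in muropeptides.

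Both lactate transporters and the glucose importer Slc2a1 were at least 2-fold higher in croton oil keratinocytes, and Slc16a1 also in microneedle keratinocytes. The microneedle call of Slc16a1 ends under TMM scaling, and the croton oil call of Slc16a3 ends when a member has to reach 0.1 of its level in any other gated cell type. Slc16a1 had 16.6, 54.4 and 41.5 CPM, or 3.28-fold (2.66 to 4.07) and 2.5-fold (1.93 to 3.25), and in the basal type 17.6, 57.4 and 45.9 CPM. Slc16a3 had 1.12, 23.2 and 13.2 CPM, with 7 UMIs in the untreated sum, and did not enter with microneedles. Neutrophil markers stood in keratinocytes too: Ly6g was at 0 in each keratinocyte sum, Csf3r was at no more than 2.65 CPM, and the 6 markers summed to 33.2, 1953 and 1048 CPM, and their part in the Slc16a3 values was not tested. Slc2a1 had 52.3, 128 and 85.6 CPM in all keratinocytes and 95.5, 133 and 101 CPM in the basal type, under 2-fold there. Hif1a, the hypoxia-responsive factor, had 86.0, 258 and 177 CPM, and Bsg 199, 375 and 223 CPM. Slc6a6 had 228, 523 and 349 CPM in all keratinocytes but 452, 551 and 399 CPM in the basal type, and Slc19a1, the folate importer, 3.67, 25.5 and 16.5 CPM. Slc19a1 remained low in the suprabasal type, at no more than 2.78 CPM.

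Slc6a14, an importer of neutral and cationic amino acids, reached 2-fold in the basal type with both treatments and in the suprabasal type with microneedles alone. Over the sum of both types it did not. Its level over all keratinocytes was 55.3, 56.4 and 41.5 CPM, within 2-fold throughout. In the basal type it was 5.19 CPM (2.91 to 8.56) in the untreated, 56.6 (52.1 to 61.3) in the croton oil and 45.5 (37.8 to 54.3) in the microneedle library. In the suprabasal type it was 98.2, 54.2 and 26.4 CPM. The basal-type cells of both treated libraries lay well above those of the untreated one, while the suprabasal-type cells, which differed in their keratins, lay below, by under 2-fold with croton oil. This gene was looked at by cell type after its values were seen.

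**Figure D5:**
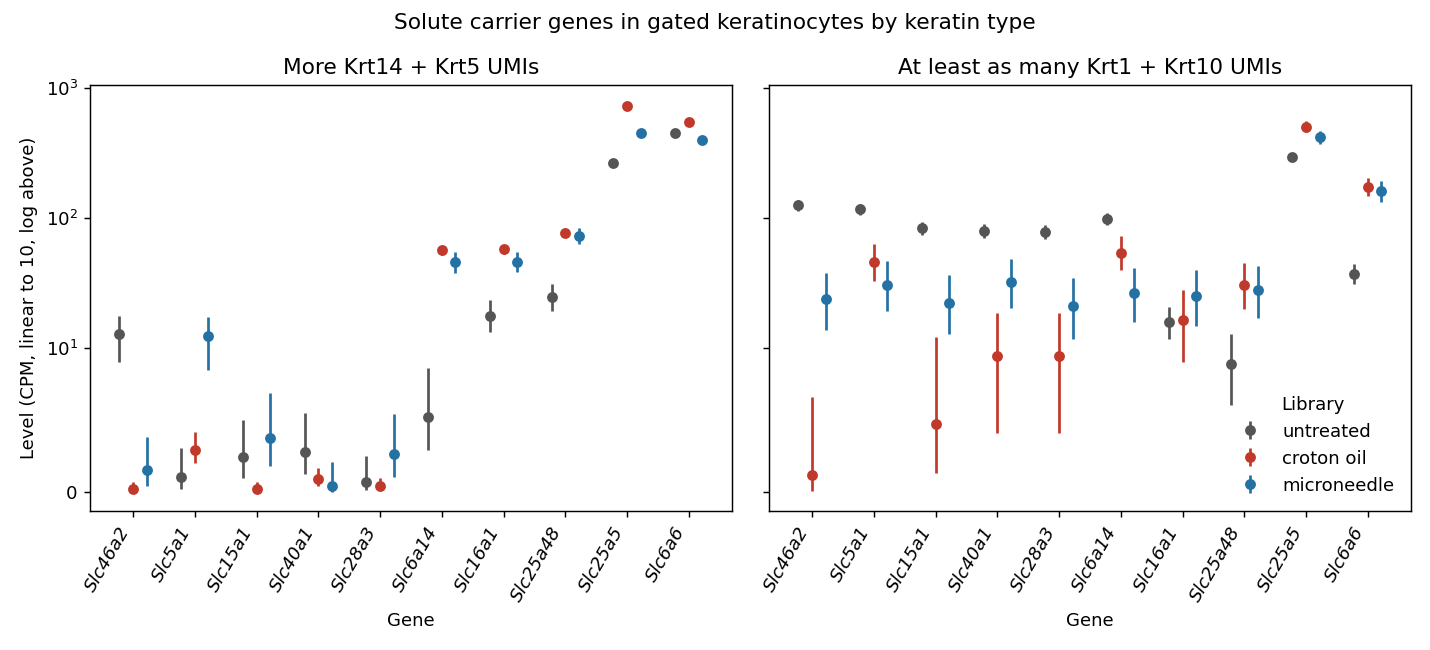
Levels (CPM, linear up to 10 and logarithmic above) of 10 members in basal-type (left) and suprabasal-type (right) keratinocytes, 1 point per library with its 95% counting interval. Slc46a2, Slc5a1, Slc15a1, Slc40a1 and Slc28a3 are high in untreated suprabasal-type cells, and Slc6a14 is low in untreated basal-type cells alone.

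Of 16 metal transporters that entered with croton oil in keratinocytes, 5 were at least 2-fold lower and 1 higher (median -0.45), where 13.2% of all features were lower and 11.6% higher. With microneedles 4 of 17 were lower and none higher (median -0.08, with 8 members above 0 and 9 below), where 5.81% of all features were lower. Slc30a1, the zinc exporter of the plasma membrane, had 52.6, 19.6 and 22.3 CPM, Slc31a2, a copper transporter, 109, 46.5 and 44.4 CPM, and Slc11a2 43.1, 13.0 and 15.6 CPM. In the basal type Slc30a1 had 14.9, 19.2 and 19.4 CPM and Slc11a2 11.4, 12.9 and 12.7 CPM, so neither was lower there. Slc31a2 had 51.9, 43.1 and 31.7 CPM in the basal type and 157, 89.5 and 91.6 CPM in the suprabasal type, under 2-fold in both. Slc30a1 and Slc31a2 also lose the croton oil call under TMM scaling, which leaves 3 lower metal members. Of the other classes with croton oil, 5 of 13 inorganic ion members were at least 2-fold lower and 1 higher (median -0.95), 3 of 6 sugar members lower and 1 higher (median -1.40), and 5 of 16 amino acid members lower and 1 higher (median -0.38). With microneedles none of 13 inorganic ion members reached 2-fold (median -0.09), 3 of 7 sugar members were lower and none higher (median -0.05), and 1 of 16 amino acid members was lower and none higher (median -0.12). The nucleotide sugar members had medians of 0.46 over 5 and 0.14 over 4, and the other or unassigned members -0.64 over 15 and 0.04 over 16. Mt1 and Mt2 had 300, 2760 and 1431 CPM and 158, 1358 and 768 CPM in keratinocytes. Slc39a1 had 18.7, 42.8 and 35.6 CPM and was the higher metal member with croton oil, at log2 1.01. That call ends when the cells with the highest doublet scores are removed, and also within the basal type and within the suprabasal type.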

How the data were processed

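Cells of 3 libraries of LC-enriched mouse ear epidermis were analysed. The deposited values were whole-number UMI counts for each gene in each cell, which the authors made with Cell Ranger 8.0 against GRCm39, per the submitters' processing notes; the file headers give 8.0.0. Filters before deposit other than cell calling are not given in the sources used here.

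Cells were gated by the UMI shares given in the report, their counts summed per library, and CPM taken over each sum's own total. Neutrophils had at least 1% of UMIs from S100a8 and S100a9 with Csf3r, T cells at least 3 UMIs of T cell receptor complex genes, and macrophages at least 5 of Lyz2 and 2 of Csf1r, Cd14, Ccr2 and Mrc1 without Epcam. Intervals are exact Poisson for levels, conditional binomial for ratios and Clopper-Pearson for shares of cells, and a share of 0 is limited by 3 counts of the total. Cells were not clustered. Doublets were kept in the main values; the cells with the highest Scrublet scores (scanpy 1.11.5) were removed as an alternative, at 0.8% per 1000 barcodes. A cell was left out of thinned shares when it had under 5000 UMIs. Basal-type and suprabasal-type keratinocytes, a subtraction of LC RNA and LCs without cycling cells were alternatives chosen after seeing the data. TMM factors came from edgeR 4.0.16, used for that alternative only; no count model was fitted, since each group was 1 library. Positions came from GENCODE M39.

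Members, gene lists and substrate classes (assigned by family, with exceptions by gene) were chosen with earlier results of these data known. Genes named were the members at least 2-fold changed in LCs, the 8 highest in each untreated sum, the 8 farthest each way between cell types, up to 6 each way per treatment in keratinocytes, and the highest of each class in LCs; other genes were named after their values were seen.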

Additional observations from a re-analysis of the deposited data

Results flagged for a closer look

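In 4 of the 74 members that entered both comparisons the croton oil difference from the untreated library had opposite signs in LCs and in keratinocytes, each by at least 0.5 on the log2 scale, as in 137 of 5802 features; the difference between the cell types was not tested, and 1 library stands behind each group. Slc25a13 stood at -0.89 in LCs and 0.60 in keratinocytes, but had 80.0 CPM in untreated and 74.8 CPM in croton oil keratinocytes of the basal type, and Slc66a2 at -0.55 and 0.79. Slc17a5, the lysosomal sialic acid exporter, stood at 0.51 in LCs and -0.64 in keratinocytes, and Slc15a3 at 0.59 and -0.82, the keratinocyte values of Slc15a3 being near the level that LC RNA would give. With microneedles Slc37a1 stood at 0.68 in LCs and -1.51 in keratinocytes, and Slc66a2 at -0.56 and 0.58, in the same untested way, 2 of 77 members beside 82 of 5726 features.

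Cells outside the LC and keratinocyte gates held Slc genes that are not members, at 100 CPM or more. Slc7a11, the cystine importer that feeds glutathione synthesis, had 461 CPM (414 to 511) in the 185 gated neutrophils of the croton oil library and 1109 CPM (1059 to 1161) in the 326 of the microneedle library. In the 137 gated macrophages of the microneedle library it had 486 CPM (450 to 525), beside 2.46, 12.5 and 11.1 CPM in LCs. Slc11a1, a metal transporter of phagosomes, had 108 and 224 CPM in neutrophils, and Slc28a2, a nucleoside importer, 130 CPM in neutrophils of the croton oil library. The macrophages also held Slc37a2 at 176 CPM, Slc7a2, a cationic amino acid importer, at 133 CPM, Slc27a1 at 131 CPM and Slc7a7 at 104 CPM. The 135 gated T cells of the croton oil library held Slc4a4, a sodium bicarbonate transporter, at 129 CPM and Slc27a6 at 126 CPM. In LCs of the same libraries each of these genes other than Slc7a11 was under 6 CPM.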

How the results depend on the processing

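No paired analysis was possible because each group is 1 library. Keratinocyte values rest on 122 to 240 cells per library, and treatment cannot be told apart from library. TMM scaling moved the median of all features by 0.11 between the treated LCs (croton oil over microneedles), 0.26 in croton oil and -0.14 in microneedle keratinocytes. Every count of members within LCs kept to within 1.5 times under the gate, doublet, keratin and cell cycle alternatives, except that members lower with croton oil than with microneedles numbered 2 at class II of 4%. There 65 of 6588 features were lower, beside 70 of 6645 as reported.

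Higher members in croton oil LCs numbered 6 with a pseudocount of 1 CPM, beside 468 of 6856 features. At a minimum of 10 CPM they numbered 5, beside 469 of 8877. There, members higher with croton oil than with microneedles numbered 1, beside 143 of 8618 features, and those higher in microneedle keratinocytes 7, beside 596 of 9774. At a minimum of 50 CPM, 70 members were chosen and fewer genes entered. Lower members then numbered 6 in croton oil and 0 in microneedle LCs, beside 232 of 4060 and 68 of 3937 features. In keratinocytes they numbered 12 and 4, beside 654 of 4438 and 295 of 4337. Higher members in microneedle keratinocytes numbered 1 under TMM scaling, 18 with keratins at 2% and 20 in the suprabasal type, beside 302 of 7267, 937 of 7352 and 826 of 7070 features (447 of 7577 as reported). With keratins at 2%, higher members numbered 22 with croton oil (1190 of 7351 features) and lower members 23 with microneedles (648 of 7352). In the basal type, higher members numbered 8 with croton oil (827 of 7778 features), and 8 were higher in LCs than in keratinocytes (717 of 8771). The causes of these moves were not tested.

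The median of all features changed sign in LCs to 0.0527 (croton oil), -0.0048 (microneedles) and 0.0556 (croton oil over microneedles) under TMM scaling, and to -0.0195 with microneedles without mitochondrial and ribosomal protein genes. In keratinocytes it changed to 0.2045 and -0.0542 under TMM scaling. Medians of members and classes nearer 0 than 0.1 also changed sign in LCs, such as that of all members with croton oil (0.1069 under TMM scaling) and with microneedles (-0.0672 at 50 CPM). Among medians at least 0.1 from 0, all that changed sign were in keratinocytes. That of all members with croton oil was 0.11 under TMM scaling and 0.17 with LC RNA subtracted. That of amino acid members was 0.12 with LC RNA subtracted and 0.0701 in the suprabasal type with croton oil, and with microneedles 0.0127 with keratins at 2% and 0.80 in the suprabasal type. That of mitochondrial carriers was -0.0654 in the basal type. That of nucleotide sugar members was -0.0327 in the suprabasal type with croton oil, and with microneedles -0.0242 at 10 CPM and -0.0529 without mitochondrial and ribosomal protein genes. That of other or unassigned members was 0.16 in the suprabasal type with croton oil.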

Other observations

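Other transporter families, listed by symbol, were measured alongside. ATP-binding cassette (Abc) transporters had 11 genes that entered the croton oil comparison in LCs, of which 4 were at least 2-fold lower and none higher, beside 5.48% and 5.66% of all features: Abca1, the cholesterol exporter, at -2.14, Abca6 at -1.83, Abcg1, also a cholesterol exporter, at -1.33 and Abcc1 at -1.26. With microneedles none of 12 reached 2-fold. Slco4c1, an organic anion transporter, was at -2.07 and -1.51 in LCs. None of 7 Mfsd genes reached 2-fold in LCs. Atp2b4, a calcium pump of the plasma membrane, was at 1.31 with microneedles.

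In keratinocytes Aqp3, the water and glycerol channel of the epidermis, was at 1.96 with croton oil and 1.75 with microneedles. Of 15 Abc genes, 2 were at least 2-fold higher and 7 lower with croton oil, beside 11.6% and 13.2% of all features. Abcg2 was at 1.53, and Abca12, the lipid transporter of differentiating keratinocytes, at -1.40. These genes were named after their values were seen, and the make-up of the gated keratinocytes given in the report differs between libraries for them as well.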
